A study of Mus musculus with 35 samples.

Results

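A set of 9 genes that mark bile duct cells and liver progenitor cells were followed over all 8 groups of a mouse liver tumor series: Sox9, Prom1, Spp1, Epcam, Cd24a, Krt19, Krt7, Krt8 and Krt18. The genes were chosen by name, and each was read from its brightest probe set annotated to a single gene symbol. This gave values for 8 of the 9 genes, out of 18820 genes measured in the same way; Spp1, the secreted matrix protein osteopontin, had no such probe set and was not analysed here. The measured genes fell into 4 progenitor genes (Sox9, Prom1, Epcam and Cd24a), 2 duct keratins (Krt19 and Krt7) and 2 simple epithelial keratins (Krt8 and Krt18).

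Liver RNA was hybridised to 35 Affymetrix arrays, 1 for each sample. DEN tumors and the non-tumorous liver (NTL) of DEN mice, 5 arrays each, came from animals given the carcinogen diethylnitrosamine intraperitoneally at 10 mg per kg at 15 days of age and examined at 9 months, against 5 DEN controls from untreated mice. LT tumors (3 arrays) and LT NTL (5 arrays) came from tg1223 mice, a line with liver-restricted expression of lymphotoxin alpha and beta that was watched for 12 months. MYC tumors (5 arrays) and MYC NTL (3 arrays) came from TRE-MYC mice crossed to LAP-tTA mice, in which a liver promoter drives the transactivator; doxycycline chow (200 mg per kg) held MYC off until 8 weeks of age, and the age at sampling is not given in the sources used here. LT and MYC share 4 control arrays from transgene-negative mice. Strain and sex are not stated, although the controls are described as matched in age and sex. By the stems of the mouse identifiers, the 5 DEN tumors came from 3 mice and the 3 LT tumors from 2, no tumor shared a mouse with an NTL array, and the MYC NTL mice carry identifiers that start with WT.

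When hepatocytes are injured over a long time, small ducts with progenitor features spread from the portal tracts, a change known as the ductular reaction. Sox9 is the transcription factor that marks biliary cells and progenitors, and Prom1 (CD133), Epcam and Cd24a are surface proteins by which progenitor cells are often sorted. Krt7 and Krt19 are keratins of mature bile ducts, while Krt8 and Krt18 pair to form the keratin filaments of hepatocytes and are also made in ducts. In whole tissue, more cells of a type and more RNA per cell cannot be told apart.

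Values are the deposited log2 RMA values, so a difference of 1 is a doubling. The median of an array lay between 5.59 and 5.73 and its first quartile between 4.13 and 4.24, which places Epcam and Krt19 below the median in every group mean. Every group carried the liver's own genes at high levels: Alb, the gene of albumin, ranged from 13.59 to 13.78 and Hnf4a, the hepatocyte transcription factor, from 11.75 to 12.41 over all arrays. Xist, the noncoding RNA that coats the silenced X chromosome and marks female tissue, was high on 9 of 35 arrays (11.74 to 12.22, against 3.54 to 6.24 on the others). These 9 arrays were all 3 LT tumors, 4 of 5 LT NTL, replicate 3 of the DEN controls and replicate 3 of the shared controls. Tumor model and Xist are thus largely tied together in the LT mice. High Xist was on 1 of 4 shared controls, and on 1 of 5 DEN controls but no DEN tumor or DEN NTL array. By this marker the groups compared were not matched in sex, although the controls are described so.

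In tumors against NTL all 4 progenitor genes rose in DEN, 2 of 4 rose in LT and 0 of 4 were called by limma in MYC, where 0 of 4 also had a p under 0.05 before adjustment. The duct keratins Krt19 and Krt7 were called in no model; before adjustment limma put 0 of 2 under 0.05 in DEN and in LT and both, with lower values in tumors, in MYC. Krt8 and Krt18 rose in all 3. A gene was called when its limma adjusted p, Benjamini-Hochberg over all genes, was under 0.05. In DEN, 6 of the 8 genes were called, all higher, where 32.2% of all genes were called and 15.6% were called higher. In LT, 4 of 8 were called, all higher, against 20.4% of all genes called and 10.7% called higher; with LT tumor and NTL arrays fitted alone, none of these 4 was called (limma adjusted p = 0.0567 to 0.235). In MYC, 2 of 8 were called, both higher, against 21.8% called and 11.5% called higher. The median log2 change of the 8 genes was 0.88 in DEN, 0.60 in LT and -0.25 in MYC, beside medians over all genes of -0.04, -0.03 and -0.03. Tumor and NTL values did not overlap for 4 of the 8 genes in DEN, 1 in LT and 5 in MYC, where this held for 22.4%, 16.3% and 26.9% of all genes.

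**Figure D1:**
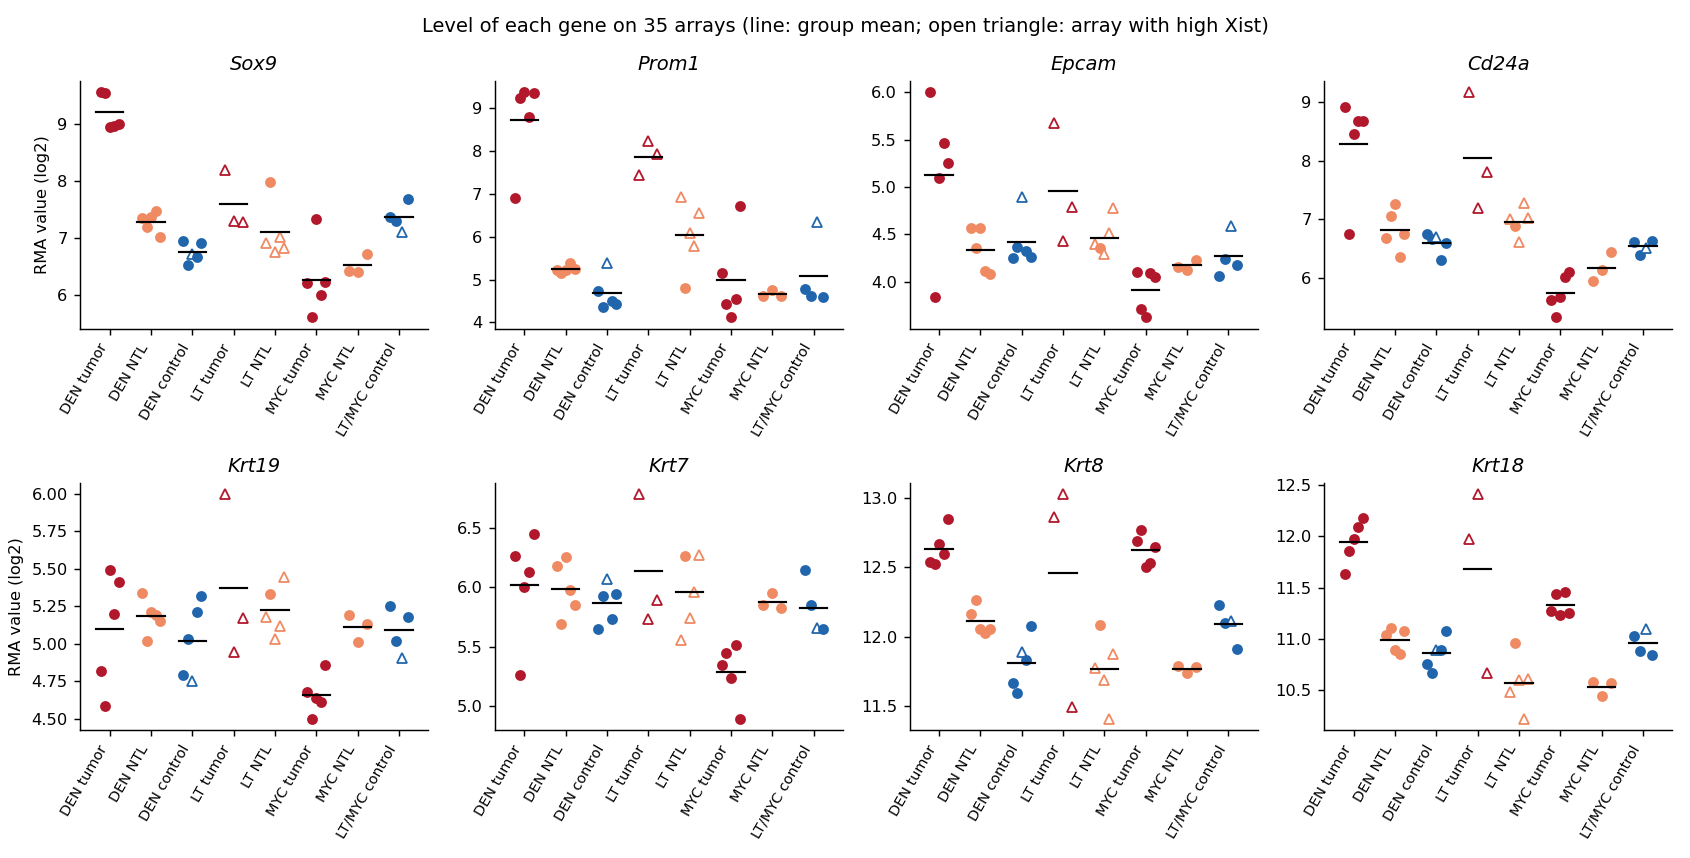
Level of each of the 8 measured genes (log2 RMA value, vertical axis) on all 35 arrays, by group; points are arrays, lines are group means, and open triangles are the 9 arrays with high Xist. Sox9 and Prom1 of the DEN tumors lie above every DEN NTL and DEN control array, whereas Krt19 and Krt7 of the DEN tumors overlap both groups.

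Sox9 (chr11:112782210-112787757, assembly GRCm38.p6) was highest in DEN tumors. It read 9.56, 9.55, 8.95, 8.96 and 9.0 in the DEN tumors, against 7.34, 7.19, 7.37, 7.48 and 7.01 in DEN NTL and 6.95, 6.52, 6.72, 6.66 and 6.91 in DEN controls. No DEN tumor overlapped either group, and DEN NTL did not overlap the controls. The tumor change was 1.93 ± 0.24 (log2 ± SE, 3.80-fold, limma adjusted p = 2.1e-07) against NTL and 2.45 ± 0.24 against controls (limma adjusted p = 2.01e-09). DEN NTL lay 0.53 ± 0.24 above controls, which was not called (limma adjusted p = 0.476).

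In the LT mice Sox9 read 8.19, 7.30 and 7.29 in tumors, against 6.92, 7.98, 6.76, 7.01 and 6.82 in NTL and 7.37, 7.29, 7.11 and 7.69 in the shared controls. A single tumor, replicate 1, was above all of these, and its partner from the same mouse stem, replicate 2, was not. The LT change of 0.49 ± 0.27 was not called (limma adjusted p = 0.215); without LT NTL replicate 2, the highest of its group, it was 0.71 and was called (limma adjusted p = 0.048), and without LT tumor replicate 1 it was 0.20 (limma adjusted p = 0.784). In MYC mice it read 6.20, 5.61, 7.33, 5.99 and 6.22 in tumors, against 6.43, 6.41 and 6.72 in NTL. The MYC tumor change against NTL, -0.25 ± 0.27, was not called (limma adjusted p = 0.57). Against the shared controls, however, Sox9 fell by 1.09 on the log2 scale in MYC tumors (SE 0.25, limma adjusted p = 0.0019), and MYC NTL stood 0.85 below the same controls (a change of -0.85 ± 0.28, limma adjusted p = 0.0961). These comparisons share the control arrays. The change in DEN exceeded that in LT by 1.43 ± 0.36 (limma interaction adjusted p = 0.00735) and that in MYC by 2.17 ± 0.36 (limma interaction adjusted p = 9.92e-05), while the LT and MYC changes differed by 0.74 ± 0.38, which was not called (limma adjusted p = 0.217).

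Prom1 (chr5:43993621-44102047, minus strand), which encodes the membrane protein CD133, had the largest change of the 8 genes in DEN and LT tumors when read from its brightest probe set, a rank it lost when its probe sets were averaged. Its values were 6.90, 9.23, 9.37, 8.80 and 9.36 in DEN tumors, against 5.22, 5.15, 5.22, 5.39 and 5.24 in DEN NTL and 4.73, 4.37, 5.39, 4.51 and 4.44 in DEN controls. All 5 tumors were above all 10 other DEN arrays, and replicate 1 was well below the remaining tumors. The change against NTL was 3.49 ± 0.44 (11.2-fold, limma adjusted p = 3.66e-07).

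In LT tumors Prom1 read 7.45, 8.23 and 7.92, against 6.94, 4.80, 6.08, 5.79 and 6.55 in LT NTL and 4.78, 4.62, 6.35 and 4.59 in the shared controls. LT tumors did not overlap LT NTL, and Prom1 rose by 1.84 ± 0.51 (3.57-fold, limma adjusted p = 0.0101). The call was lost without LT tumor replicate 2 (1.65, limma adjusted p = 0.0522). MYC tumors held 5.14, 4.43, 4.12, 4.54 and 6.71, against 4.62, 4.77 and 4.61 in MYC NTL, so a single tumor, replicate 5, stood apart in a group whose change of 0.32 ± 0.51 was not called (limma adjusted p = 0.708). The DEN change exceeded the MYC change by 3.17 ± 0.67 (limma interaction adjusted p = 0.00146). It was above the LT change by 1.66 ± 0.67, which was not called (limma adjusted p = 0.101), although it was called without DEN tumor replicate 1 (2.11, limma adjusted p = 0.0149) or without LT NTL replicate 2 (1.96, limma adjusted p = 0.0452). The difference was also called with Xist as a covariate (1.93, limma adjusted p = 0.024), which makes 3 of 25 alternative settings.

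Prom1 also moved with Xist inside the groups that held both kinds of array. In DEN controls the high-Xist array had 5.39, against 4.37 to 4.73 on the other 4. In the shared controls it had 6.35, against 4.59 to 4.78. In LT NTL the 4 high-Xist arrays had 5.79 to 6.94, against 4.80 on the low-Xist one. With group means fitted, the high-Xist arrays were 1.36 ± 0.39 higher, which was not called (limma adjusted p = 0.107). Only these mixed groups, each with a single array of its rarer kind, inform that estimate and the Xist adjustment. With Xist as a covariate the LT change against NTL was 1.56 (limma adjusted p = 0.0119), the LT change against controls was 1.76 (limma adjusted p = 0.0448) in place of 2.78 ± 0.53 (limma adjusted p = 0.00089), and the DEN changes kept their calls. Sox9 had the opposite sign (-0.50 ± 0.23, limma adjusted p = 0.49).

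A dimmer probe set of Prom1 did not follow the bright one. Its group means were 5.26 in DEN tumors against 5.06 in DEN NTL, 5.11 in LT tumors against 5.02 in LT NTL, and 4.92 in MYC tumors against 5.13 in MYC NTL. Averaging the probe sets gave a DEN change of 1.85 and a LT change of 0.96, both still called, which placed Prom1 below Sox9 (1.93) in DEN and below Krt18 (1.11) and Cd24a (1.10) in LT. The promoter of Prom1 is shown because its bright probe set had the largest change; RefSeq lists 2 windows for it, and this is the upstream one, chr5:44101687-44101986 (GRCm38.p6, minus strand, 250 bases before to 50 after the start), with the AP-1 pattern TGANTCA in capitals.
Prom1: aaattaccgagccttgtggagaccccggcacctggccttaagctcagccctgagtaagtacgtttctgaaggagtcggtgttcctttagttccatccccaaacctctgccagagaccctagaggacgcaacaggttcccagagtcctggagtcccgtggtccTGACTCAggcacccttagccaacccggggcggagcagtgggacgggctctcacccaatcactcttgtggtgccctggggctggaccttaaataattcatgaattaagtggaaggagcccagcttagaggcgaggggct
The capitals begin 88 bases before the start. Windows were searched on both strands for GGAATG (TEAD), GTGGGAA (RBPJ), TGANTCA (AP-1), CACGTG (E-box) and ACAATG (SOX), which occurred in 14.7%, 6.38%, 7.81%, 7.15% and 12.6% of 32851 mouse promoter windows of this length. A match describes the letters and shows no binding.

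Epcam (chr17:87635979-87651127), the epithelial cell adhesion molecule, was dim and uneven among tumors. It read 6.0, 3.84, 5.09, 5.46 and 5.26 in DEN tumors, against 4.57, 4.36, 4.56, 4.12 and 4.08 in DEN NTL and 4.25, 4.37, 4.89, 4.32 and 4.26 in DEN controls. The DEN tumors other than replicate 2 were above all other DEN arrays, and replicate 2 was below all of these. Epcam rose by 0.79 ± 0.24 against NTL (1.73-fold, limma adjusted p = 0.0127), a call lost without DEN tumor replicate 1 (0.58, limma adjusted p = 0.0582), with tumors of the same mouse averaged (0.58, limma adjusted p = 0.0777) and with DEN tumor and NTL arrays fitted alone (limma adjusted p = 0.09). Against DEN controls it was 0.71 ± 0.24 higher (limma adjusted p = 0.0254), and this call was lost when any of DEN tumor replicates 1, 4 and 5 or DEN control replicates 1, 4 and 5 was left out (limma adjusted p = 0.0501 to 0.115), with tumors of the same mouse averaged (0.50, limma adjusted p = 0.144) and with DEN tumor and control arrays fitted alone (limma adjusted p = 0.145).

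LT tumors read 5.68, 4.43 and 4.79 for Epcam, against 4.40, 4.35, 4.29, 4.52 and 4.77 in LT NTL, a difference of 0.50 ± 0.28 that was not called (limma adjusted p = 0.232) and was 0.14 without LT tumor replicate 1 (limma adjusted p = 0.857). MYC tumors read 4.10, 3.72, 3.62, 4.10 and 4.05, against 4.16, 4.13 and 4.23 in MYC NTL. Every MYC tumor was below every MYC NTL array, but the change of -0.26 ± 0.28 was not called (limma adjusted p = 0.572). All MYC tumor values lay below the first quartile of every array, the lowest being 4.13, and the MYC NTL values lay near it. The DEN and MYC changes differed by 1.05 ± 0.37, just outside the threshold (limma interaction adjusted p = 0.0556), and the difference was called without DEN tumor replicate 2 (1.37, limma adjusted p = 0.00124).

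Cd24a (chr10:43579169-43584265), a small glycosylated surface protein, had the pattern of Epcam at a higher level. Values were 8.92, 6.74, 8.45, 8.68 and 8.67 in DEN tumors, against 6.68, 7.06, 7.27, 6.35 and 6.74 in DEN NTL and 6.75, 6.67, 6.69, 6.31 and 6.59 in DEN controls. The low tumor was again replicate 2, which fell inside the NTL range. Cd24a rose by 1.47 ± 0.30 in DEN tumors (2.78-fold, limma adjusted p = 0.000282). In LT mice it read 9.17, 7.19 and 7.80 in tumors, against 7.0, 6.88, 6.6, 7.27 and 7.02 in NTL. It rose by 1.10 ± 0.34 (2.14-fold, limma adjusted p = 0.0227), but the call rested on few arrays. Without LT tumor replicate 1 the change was 0.54 (limma adjusted p = 0.389), and without LT NTL replicate 3 it was 1.01 (limma adjusted p = 0.0525).

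MYC tumors had Cd24a at 5.62, 5.32, 5.67, 6.02 and 6.10, against 5.94, 6.13 and 6.44 in MYC NTL and 6.61, 6.39, 6.51 and 6.63 in the shared controls. All MYC tumors were below all controls, and the changes of -0.42 ± 0.34 against NTL (limma adjusted p = 0.42) and -0.79 ± 0.32 against controls (limma adjusted p = 0.0761) were not called. The change against controls was called with those groups fitted alone (limma adjusted p = 0.00651) and with arrays of the same mouse averaged (limma adjusted p = 0.0276). The MYC change was exceeded by the DEN change by 1.90 ± 0.46 (limma interaction adjusted p = 0.00424) and by the LT change by 1.52 ± 0.49 (limma interaction adjusted p = 0.0378); the second of these was lost when any of LT tumor replicate 1, LT NTL replicates 2 and 3, MYC tumor replicates 1 and 2 and MYC NTL replicates 1, 2 and 3 was left out (limma adjusted p = 0.0504 to 0.199), and was 0.96 without LT tumor replicate 1; it was also lost with those groups fitted alone (limma adjusted p = 0.0592).

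**Figure D2:**
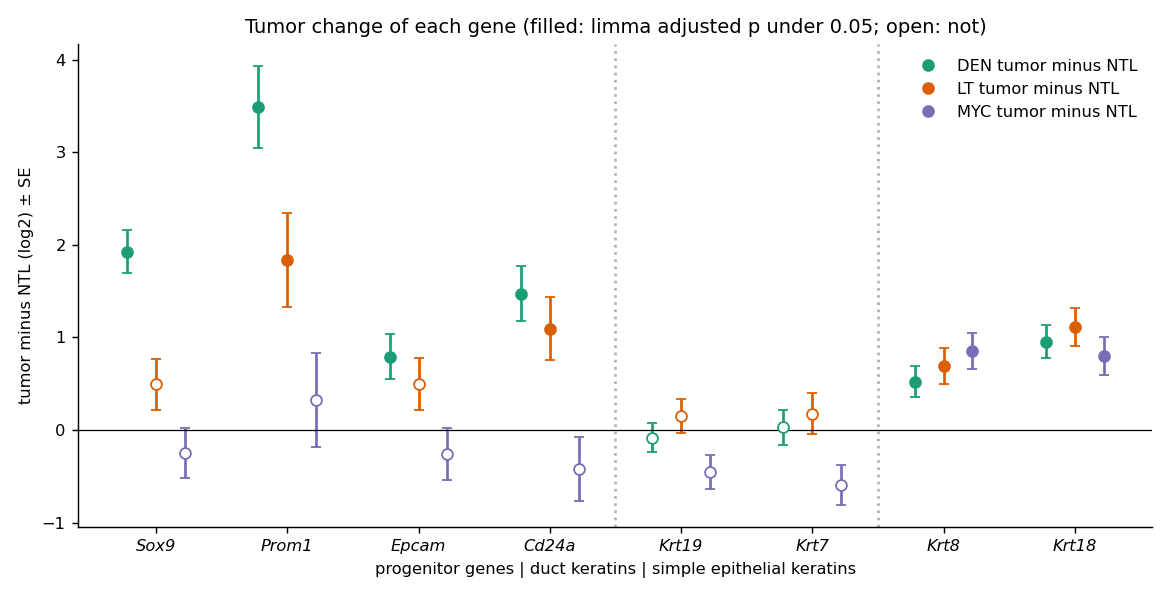
Log2 change of each gene in tumor minus NTL (vertical axis, ± SE of the limma fit) for DEN, LT and MYC; filled points were called. The 4 progenitor genes on the left run from high in DEN to near or below 0 in MYC, Krt19 and Krt7 lie near or below 0, and Krt8 and Krt18 lie between 0.52 and 1.11 in all models.

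For the mature duct keratins no rise was called. Krt19 (chr11:100140810-100145926), a keratin of bile duct cells, read 4.82, 4.59, 5.49, 5.20 and 5.42 in DEN tumors, against 5.34, 5.02, 5.22, 5.19 and 5.16 in DEN NTL and 4.75 to 5.32 in DEN controls. Tumors lay on both sides of the NTL range, and the change against NTL was -0.08 with a 95% interval of -0.40 to 0.24 (limma adjusted p = 0.734). In LT it was 0.15, with an interval of -0.22 to 0.52 (limma adjusted p = 0.616). LT tumor replicate 1 alone, at 6.0, was above the LT NTL range of 5.03 to 5.45, and the other LT tumors had 4.95 and 5.18.

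MYC tumors had Krt19 at 4.68, 4.5, 4.64, 4.61 and 4.86, against 5.19, 5.02 and 5.13 in MYC NTL and 5.26, 5.02, 4.91 and 5.18 in shared controls. All MYC tumors were below all MYC NTL and control arrays. The changes of -0.46 ± 0.18 against NTL (limma adjusted p = 0.0723) and -0.43 ± 0.17 against controls (limma adjusted p = 0.0647) were not called. Fitted on the 2 groups alone they were called (limma adjusted p = 0.0109 and 0.0142).

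Krt7 (chr15:101412403-101427806), the type II keratin of bile ducts, read 6.26, 5.26, 6.01, 6.12 and 6.45 in DEN tumors, against 6.17, 5.69, 6.25, 5.97 and 5.85 in DEN NTL and 5.65 to 6.07 in DEN controls. Its DEN change against NTL was 0.03 with a 95% interval of -0.35 to 0.42 (limma adjusted p = 0.918). LT tumors had 6.78, 5.74 and 5.89, against 5.56, 6.26, 5.74, 5.96 and 6.27 in LT NTL (0.18 ± 0.22, limma adjusted p = 0.62). MYC tumors had 5.34, 5.45, 5.24, 5.52 and 4.89, against 5.85, 5.95 and 5.83 in MYC NTL and 6.15, 5.85, 5.66 and 5.65 in shared controls. The MYC tumors lay below every MYC NTL and control array, and the change against NTL of -0.59 ± 0.22 was at the edge of the threshold (limma adjusted p = 0.0505). It was called in 5 of 15 alternative settings, with adjusted p-values from limma of 0.0172 to 0.0425 in those 5. With all arrays the difference between models for Krt19 or Krt7 was called in none of the 3 pairs of models; limma unadjusted p-values under 0.05 were found for both genes between LT and MYC and for Krt7 between DEN and MYC.

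Krt8 and Krt18 were the brightest of the 8 genes and the ones that rose against NTL in every tumor model. Against the shared controls, Krt8 in LT tumors (0.37 ± 0.20, limma adjusted p = 0.213) and Krt18 in MYC tumors (0.37 ± 0.19, limma adjusted p = 0.183) were not called. LT and MYC NTL differed from those controls by -0.32 to -0.43 for these keratins, also not called with all arrays fitted. Krt8 (chr15:101996711-102004342) read 12.54, 12.53, 12.66, 12.60 and 12.85 in DEN tumors, against 12.17, 12.26, 12.06, 12.03 and 12.06 in DEN NTL. Its values were 12.86, 13.03 and 11.49 in LT tumors, against 11.78, 12.08, 11.69, 11.41 and 11.88 in LT NTL. In MYC tumors it had 12.69, 12.77, 12.50, 12.53 and 12.65, against 11.79, 11.74 and 11.78 in MYC NTL. DEN and MYC tumors did not overlap their NTL, whereas LT tumor replicate 3 was inside the LT NTL range. The changes were 0.52 ± 0.17 in DEN (1.44-fold, limma adjusted p = 0.0163), 0.69 ± 0.19 in LT (1.62-fold, limma adjusted p = 0.0103) and 0.86 ± 0.19 in MYC (1.81-fold, limma adjusted p = 0.00167). The LT call was lost without LT tumor replicate 1 (0.49, limma adjusted p = 0.158), without replicate 2 (0.41, limma adjusted p = 0.164) and with the tumors of the same mouse averaged (0.45, limma adjusted p = 0.173).

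Krt18 (chr15:102028216-102032026), the type I partner of Krt8, read 11.63, 11.86, 11.98, 12.09 and 12.18 in DEN tumors, against 11.03, 11.11, 10.89, 10.85 and 11.08 in DEN NTL. LT tumors had 11.97, 12.42 and 10.67, against 10.48, 10.96, 10.60, 10.21 and 10.61 in LT NTL. MYC tumors had 11.27, 11.44, 11.23, 11.46 and 11.25, against 10.58, 10.44 and 10.57 in MYC NTL. Here too the DEN and MYC groups were apart and LT tumor replicate 3 was within its NTL range. Krt18 rose by 0.96 ± 0.18 in DEN (1.94-fold, limma adjusted p = 0.000126), 1.11 ± 0.21 in LT (2.16-fold, limma adjusted p = 0.000361) and 0.80 ± 0.21 in MYC (1.74-fold, limma adjusted p = 0.00602). The changes of both keratins differed between models in no pair by limma at an adjusted p under 0.05, with intervals of the DEN minus MYC difference of -0.86 to 0.18 for Krt8 and -0.41 to 0.72 for Krt18. Without LT tumor replicate 3 the LT rise exceeded the DEN rise for Krt8 (DEN minus LT -0.66, limma adjusted p = 0.00448) and Krt18 (-0.67, limma adjusted p = 0.0109).

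Across the 35 arrays Krt8 and Krt18 correlated at r = 0.94 after group means were removed, the highest value among the 28 pairs of the 8 genes. The next were Epcam with Cd24a at 0.84, Epcam with Krt7 at 0.67 and Cd24a with Krt7 at 0.64, whereas Sox9 with Prom1 was -0.45. These correlations are descriptions over arrays that share groups, mice and normalization. Krt8 and Krt18 spread most among the 3 LT tumors, from 2 mice, with standard deviations of 0.84 and 0.91. The next largest were 0.25 and 0.27, in LT NTL. The correlation of these keratins therefore leans on the LT tumors. The promoters of the keratin pair that moved together, and of Krt7, whose correlation with them was 0.28 and 0.18, are shown from RefSeq (GRCm38.p6, all on chromosome 15). Krt8 is chr15:102004293-102004592 on the minus strand, Krt18 is chr15:102027966-102028265 on the plus strand and Krt7 is chr15:101412153-101412452 on the plus strand.
Krt8: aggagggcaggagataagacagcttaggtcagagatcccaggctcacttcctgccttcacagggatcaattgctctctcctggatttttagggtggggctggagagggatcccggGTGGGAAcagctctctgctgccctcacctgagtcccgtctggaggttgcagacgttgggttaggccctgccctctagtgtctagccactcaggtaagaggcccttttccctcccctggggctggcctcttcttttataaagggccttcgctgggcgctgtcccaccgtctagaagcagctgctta
Krt18: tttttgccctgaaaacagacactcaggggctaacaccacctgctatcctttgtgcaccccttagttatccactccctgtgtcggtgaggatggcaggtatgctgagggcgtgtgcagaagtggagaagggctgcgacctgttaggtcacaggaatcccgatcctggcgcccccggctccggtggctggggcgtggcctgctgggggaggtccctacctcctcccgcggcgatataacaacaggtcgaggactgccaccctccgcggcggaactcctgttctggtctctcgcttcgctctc
Krt7: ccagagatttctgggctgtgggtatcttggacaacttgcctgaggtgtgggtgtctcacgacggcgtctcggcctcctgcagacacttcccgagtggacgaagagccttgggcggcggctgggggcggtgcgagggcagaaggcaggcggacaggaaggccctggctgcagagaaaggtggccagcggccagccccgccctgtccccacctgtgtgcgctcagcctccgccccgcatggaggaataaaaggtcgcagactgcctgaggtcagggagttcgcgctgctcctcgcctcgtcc
The capitals in Krt8 mark GTGGGAA, the RBPJ pattern, which begins 135 bases before the start. None of the 5 patterns was in the Krt18 or Krt7 window, which says only that these letters are not there.

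Single tumors mixed the genes differently. DEN tumor replicate 2 had Sox9 and Prom1 at 2.28 and 3.99 above the NTL mean, while its Epcam, Cd24a, Krt19 and Krt7 stood at -0.50, -0.08, -0.60 and -0.73 from it. DEN tumor replicate 1, in contrast, had the smallest Prom1 difference of its group, 1.66, and the largest for Epcam and Cd24a, 1.67 and 2.10. Its partner from the same mouse stem, replicate 4, had 3.56, 1.13 and 1.86 for these 3 genes.

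LT tumor replicate 1 was higher than the NTL mean for all 8 genes, by 0.78 for Krt19 to 2.22 for Cd24a. Replicate 2, from the same stem, was higher by 2.20 for Prom1, 1.26 for Krt8 and 1.84 for Krt18, and within 0.28 of the NTL mean for the remaining 5 genes. LT tumor replicate 3 had Prom1 at 1.89 and Cd24a at 0.84 above the NTL mean and Krt8 at -0.28 and Krt18 at 0.10. All 5 MYC tumors had Krt8 and Krt18 above, and Epcam, Cd24a, Krt19 and Krt7 below, their NTL mean.

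**Figure D3:**
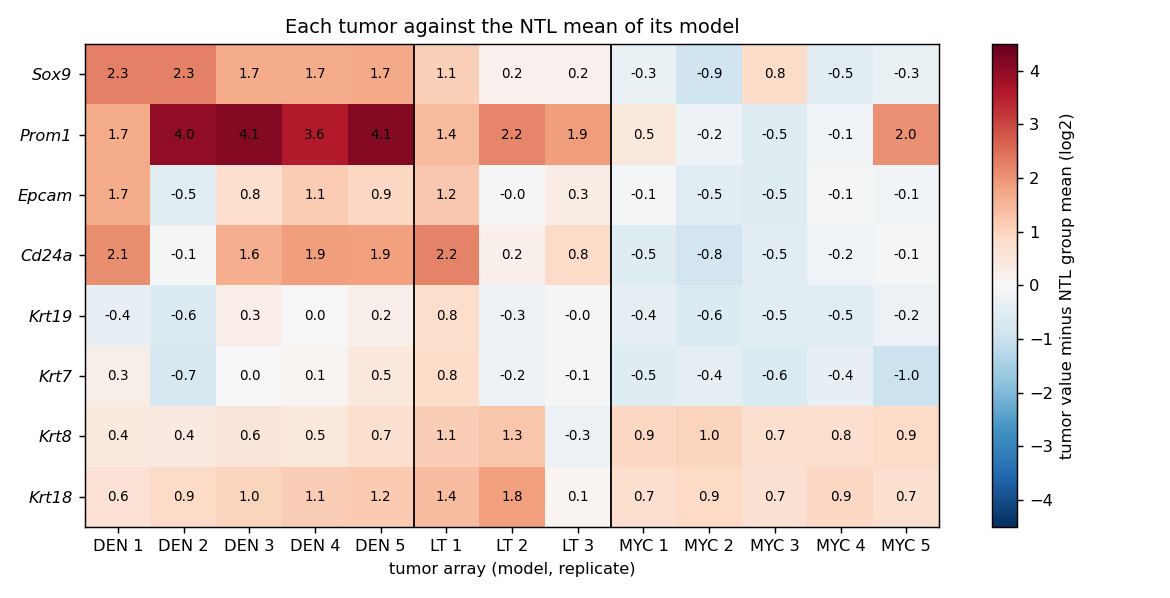
Each of the 13 tumor arrays (columns) against the NTL mean of its model for the 8 genes (rows); colour and printed value give the log2 difference. DEN tumor 2 combines high Sox9 and Prom1 with Epcam and Krt7 below the NTL mean, and the MYC columns are high in Krt8 and Krt18 but not in Cd24a, Krt19 or Krt7.

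Tumors were also set against control livers. In DEN tumors 6 of 8 genes were called, all higher, where 30.7% of all genes were called and 15.0% called higher. Beside Sox9 and Epcam these were Prom1 (4.05 ± 0.44), Cd24a (1.69 ± 0.30), Krt8 (0.82 ± 0.17) and Krt18 (1.09 ± 0.18), with limma adjusted p = 2.13e-08, 4.46e-05, 0.00026 and 1.86e-05. Krt8 lay between 11.60 and 12.08 and Krt18 between 10.66 and 11.08 in DEN controls, below all DEN tumors. In LT tumors 3 were called, all higher, where 16.5% were called and 8.78% called higher; these were Prom1 (2.78 ± 0.53), Cd24a (1.52 ± 0.36) and Krt18 (0.72 ± 0.22), with limma adjusted p = 0.00089, 0.00474 and 0.0223. Fitted on the 2 groups alone, none of these 3 was called (limma adjusted p = 0.077 to 0.312). The Krt18 call was also lost with Xist as a covariate (0.79, limma adjusted p = 0.0638), with tumors of the same mouse averaged (0.47, limma adjusted p = 0.201) and when any of LT tumor replicates 1 and 2 or shared control replicates 2 and 4 was left out (limma adjusted p = 0.0535 to 0.264). Without LT tumor replicate 1 Cd24a was 0.96 higher (limma adjusted p = 0.106), Prom1 was the one gene of the 8 still called there, and without LT tumor replicate 3 Krt8 was called too (0.85, limma adjusted p = 1.88e-05), as was Epcam without LT tumor replicate 2 (0.96, limma adjusted p = 0.0471). Shared controls had 11.91 to 12.23 for Krt8 and 10.84 to 11.10 for Krt18. In MYC tumors Krt8 was called higher (0.54 ± 0.18, limma adjusted p = 0.0288) and Sox9 lower, where 20.5% were called, 10.2% higher and 10.3% lower; the Krt8 call was lost when any of control replicates 2, 3 and 4 or MYC tumor replicates 1 and 2 was left out (limma adjusted p = 0.0511 to 0.0852). Tumor and control values did not overlap for 4 genes of 8 in DEN, 2 in LT and 5 in MYC, where this held for 20.9%, 18.5% and 17.5% of all genes.

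In NTL against controls 0 of the 8 genes were called by limma in any model, where 0.197% of all genes were called in DEN, 2.41% in LT and 3.83% in MYC. Before adjustment, limma put Sox9 under 0.05 in DEN and in MYC (1 gene of 8 each) and 0 of 8 in LT. NTL and control values did not overlap for 1 gene of 8 in DEN, 0 in LT and 3 in MYC, where this held for 4.68%, 8.17% and 22.1% of all genes. Fitted on the 2 groups alone, Sox9 was called in both models, at 0.53 in DEN (limma adjusted p = 0.0396) and -0.85 in MYC (limma adjusted p = 0.0094), and Krt18 in MYC, at -0.43 (limma adjusted p = 0.021). In the order of group means, DEN tumors had the highest Sox9 and did not overlap the LT tumors next to them, while every later neighbour in the Sox9 order overlapped. For Prom1 the order was DEN tumor, LT tumor, LT NTL, with a gap of 1.84 and no overlap between LT tumor and LT NTL. For Krt7, MYC tumors were lowest and did not overlap the shared controls above them. For Epcam and Cd24a the order began with DEN and LT tumors and ended with MYC tumors. For Krt19 the LT tumors came first and the MYC tumors last, and all neighbours overlapped.

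Direct comparisons between models gave 1 gene of 8 for DEN against LT (Sox9), 3 for DEN against MYC (Sox9, Prom1 and Cd24a) and 1 for LT against MYC (Cd24a), all with the larger change in the model named first. Over all genes 13.9%, 15.1% and 12.4% were called in these 3 contrasts, and 6.3%, 7.12% and 5.76% with that sign. Single arrays decided further calls. For LT against MYC, Sox9 was called without MYC tumor replicate 3 (1.0, limma adjusted p = 0.0394), Prom1 without MYC tumor replicate 5 (1.94, limma adjusted p = 0.0483), Krt19 and Krt7 without LT tumor replicate 2 (0.82 and 0.97, limma adjusted p = 0.0313 and 0.0393) and Krt18 without LT tumor replicate 3 (0.82, limma adjusted p = 0.00381). For DEN against MYC, Krt7 was called without DEN tumor replicate 2 (0.81, limma adjusted p = 0.0291).

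Other genes of bile duct biology were counted from lists that hold none of the 8 genes. Each count stands beside the shares over all genes in tumors against NTL, which were 32.2% called and 15.6% called higher in DEN, 20.4% and 10.7% in LT, and 21.8% and 11.5% in MYC. Of 9 measured biliary transcription factors, 4 rose and 1 fell in DEN tumors, 4 rose and 1 fell in LT tumors and 3 rose in MYC tumors. Sox4, Hes1 and Elf3 rose against NTL in all 3 models: Sox4, a partner of Sox9 in bile duct formation, by 1.98 ± 0.29 in DEN, 1.16 ± 0.34 in LT and 1.18 ± 0.34 in MYC, Hes1, a Notch target, by 1.11 ± 0.18, 0.95 ± 0.20 and 0.92 ± 0.20, and Elf3, an epithelial ETS factor, by 1.25 ± 0.21, 0.96 ± 0.25 and 1.44 ± 0.25. Against the shared controls Sox4 and Elf3 were called higher in LT and MYC tumors, and Hes1 in neither. Hes1 averaged 7.19 in MYC tumors, 6.27 in MYC NTL and 7.33 in those controls, and was called lower in MYC NTL than in controls. Ehf, another ETS factor, rose by 1.25 ± 0.29 in LT. Onecut2 fell by 1.79 on the log2 scale in DEN and Onecut1 fell by 2.13 in LT (limma adjusted p = 0.000199 and 0.0259); both are homeobox factors of liver and bile duct development. The median change of this list was 0.36 in DEN, 0.36 in LT and -0.13 in MYC.

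Genes of cholangiocyte transport and cilium, 11 measured, had 5 higher in DEN, 2 higher in LT, and 2 higher and 2 lower in MYC. The 2 of 11 called in LT are near the 20.4% of all genes, and the list medians were 0.37, 0.12 and 0.01 in DEN, LT and MYC. Bicc1, an RNA-binding protein whose loss gives cysts in mouse kidney, rose by 1.85 ± 0.35 in DEN and was also called higher in LT. Slc10a2, the apical bile acid transporter, rose by 1.43 ± 0.42 in LT and 1.77 ± 0.42 in MYC and was also called higher in DEN. Against the shared controls Bicc1 was called higher in LT and MYC tumors, and Slc10a2 in neither. Pkhd1, the cilium protein fibrocystin, fell by 0.90 on the log2 scale in MYC (limma adjusted p = 0.0243). Cftr, the chloride channel of ducts, rose by 0.37 ± 0.12 in DEN (limma adjusted p = 0.0165), with no group mean above 3.69 and so below the first quartile of every array, and Sctr, the secretin receptor, had changes of 0.14 ± 0.11, 0.12 ± 0.13 and 0.10 ± 0.13 in DEN, LT and MYC (limma adjusted p = 0.378, 0.558 and 0.616).

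Among 7 other keratins, Krt20 rose by 1.70 ± 0.40 in DEN (limma adjusted p = 0.00137), Krt10 fell by 0.29 and Krt14 by 0.20 in DEN on the log2 scale, Krt80 rose by 0.33 ± 0.11 in LT and 0 were called by limma in MYC, where 1 of 7 had an unadjusted p under 0.05. The 1 of 7 in LT and 0 of 7 in MYC lie below the 20.4% and 21.8% of all genes. Krt23, a keratin linked to ductular injury, ranged from 4.73 to 8.63 in DEN tumors, against 5.55 to 6.28 in DEN NTL, and its change of 1.01 ± 0.48 was not called (limma adjusted p = 0.111). Of 8 proteins that bind or anchor keratins, 4 rose in DEN, 1 in LT and 2 in MYC, with Ppl (periplakin) at 1.55 ± 0.35 in DEN and 2.00 ± 0.41 in MYC and Pkp2 (plakophilin) at 0.42 ± 0.14 in LT; the 1 of 8 in LT is below the 20.4% of all genes and the 2 of 8 in MYC near the 21.8%.

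Of 9 epithelial junction genes, 4 rose in DEN, 1 rose and 2 fell in LT, and 1 rose and 1 fell in MYC. The 2 of 9 called in MYC are near the 21.8% of all genes and are no result about junction genes as a group, and the list medians were 0.19, 0.02 and 0.16. Cdh1, E-cadherin, ranged from 9.89 to 10.46 in DEN tumors, against 7.26 to 7.55 in DEN NTL (2.76 ± 0.61, limma adjusted p = 0.000697). In MYC it fell by 2.58 on the log2 scale against NTL (SE 0.70, limma adjusted p = 0.00807), with 4.39 to 9.23 in tumors, against 8.81 to 8.96 in NTL. The shared controls had 6.14 to 7.66, below all MYC NTL arrays, and Cdh1 was not called in MYC tumors against these controls. LT tumors spread from 5.59 to 9.68 for Cdh1, against 6.91 to 9.19 in LT NTL. Tjp3, a tight junction protein, rose by 1.01 ± 0.27 in MYC and Cldn4 (claudin) by 0.43 ± 0.14 in LT against NTL. Esrp2, an epithelial splicing factor, fell by 0.51 on the log2 scale in LT. Against the shared controls Tjp3 was not called in MYC tumors, nor were Cldn4 and Esrp2 in LT tumors. Tjp3 was called lower in MYC NTL than in those controls.

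A further 11 markers of progenitors and reactive ducts had 6 higher in DEN, 4 higher in LT, and 1 higher and 1 lower in MYC. The 2 of 11 called in MYC are near the 21.8% of all genes, whereas none of the calls in DEN and LT was lower, with list medians of 0.80 and 0.70. Tspan8, a tetraspanin, ranged from 6.91 to 10.16 in DEN tumors, against 5.39 to 5.93 in DEN NTL, and rose by 3.76 ± 0.47 (limma adjusted p = 3.38e-07). Cd44, the hyaluronan receptor, rose by 1.87 ± 0.35 in LT. Tnfrsf12a, the TWEAK receptor that drives progenitor growth in mouse liver, rose by 2.27 ± 0.22 in DEN, 0.70 ± 0.26 in LT and 1.53 ± 0.26 in MYC. Foxl1, a marker of progenitors in injured mouse liver, fell by 0.41 on the log2 scale in MYC. It was dim, with means of 4.00 in MYC tumors, 4.41 in MYC NTL and 4.19 in shared controls, near the first quartile of the arrays. Against those controls it was not called in MYC tumors.

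Notch and YAP signalling both guide biliary fate. Of 13 Notch genes, 7 rose and 1 fell in DEN, 4 rose and 1 fell in LT, and 2 rose and 2 fell in MYC, with medians of 0.47, 0.35 and -0.05. Nrarp, a feedback target of Notch, rose by 1.55 ± 0.19 in DEN and 1.03 ± 0.21 in LT, Notch1, a receptor, rose by 0.72 ± 0.17 in MYC, and Lfng, which modifies the receptors, fell by 0.44 in DEN and by 0.66 in MYC on the log2 scale, whereas it was called higher in LT. Dll1, a ligand, fell by 0.50 in LT. Against the shared controls neither Notch1 in MYC tumors nor Dll1 in LT tumors was called, and Dll1 was called higher in LT NTL. Of 10 genes of the YAP list, 5 rose in DEN, 5 rose in LT, and 1 rose and 1 fell in MYC, where 2 of 10 is near the 21.8% of all genes; the medians were 0.37, 0.68 and 0.12. Ankrd1, a YAP target, rose by 1.04 ± 0.32 in DEN and 1.99 ± 0.37 in LT. In MYC, Ajuba rose by 1.44 ± 0.23 while Tead1, the DNA-binding partner of YAP, fell by 1.36 on the log2 scale. Ajuba was also called higher in DEN, and against the shared controls in LT and MYC tumors.

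Hepatocyte identity genes, 11 measured, had 1 higher and 5 lower in DEN, 3 lower in LT and 5 lower in MYC, with medians of -0.18, -0.11 and -0.31. The largest called fall on the log2 scale was that of Nr1h4, the bile acid receptor, in DEN (1.08). In LT it was Tat, a tyrosine-degrading enzyme (0.92), and in MYC Ppara, the fatty acid receptor (0.89). Nr1h4 was called lower in LT and MYC as well, and Ppara in DEN as well. Against the shared controls Nr1h4 was called lower in LT tumors but not in MYC tumors. Apoa1 rose by 0.29 ± 0.05 in DEN. Alb changed by 0.04 ± 0.04, 0.00 ± 0.05 and -0.04 ± 0.05 in DEN, LT and MYC, and Hnf4a by 0.11 ± 0.07, -0.11 ± 0.08 and -0.14 ± 0.08, none of them called (limma adjusted p = 0.243 to 0.995).

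**Figure D4:**
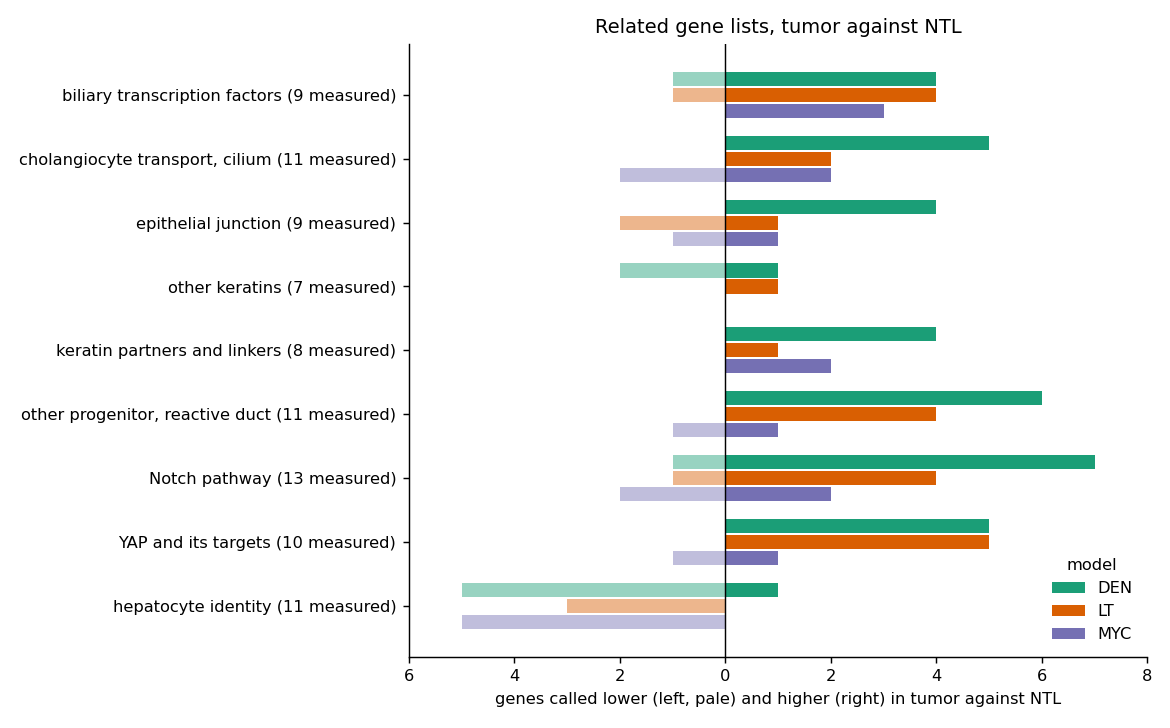
Number of genes called higher (right of 0) and lower (left, pale) in tumor against NTL for 9 related gene lists, with the 3 models as bars. The DEN bars reach 7 genes higher for the Notch list and 6 for the further progenitor markers, and the hepatocyte bars reach 5, 3 and 5 genes lower in DEN, LT and MYC, with 1 gene higher in DEN.

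Cell type markers were counted beside these genes, since tumor and NTL can hold different cells; their part in the results was not tested. The same shares over all genes apply (32.2%, 20.4% and 21.8% called in DEN, LT and MYC), and lists this short can hold few calls. The cholangiocyte list had 7 of 10 genes measured, 4 of them among the genes described above (Krt19, Krt7, Epcam and Sox9). Its mean level per array was 5.27 to 6.25 in DEN tumors, against 5.21 to 5.44 in DEN NTL, 5.22 to 6.15 in LT tumors, against 5.24 to 5.52 in LT NTL, and 4.64 to 5.00 in MYC tumors, against 5.13 to 5.16 in MYC NTL. It had 3 genes higher in DEN, 0 called by limma in LT and 1 lower in MYC, with 0 and 3 of 7 at an unadjusted p under 0.05 in LT and MYC. Macrophage markers (7) had 3 lower in DEN, 6 higher and 1 lower in LT and 3 higher in MYC, and their mean level per array was 8.87 to 9.89 in LT tumors, against 7.75 to 8.53 in LT NTL. Stellate cell and fibroblast markers (5) had 2 higher and 3 lower in DEN, 3 higher in LT and 2 lower in MYC, at 8.34 to 10.45 in LT tumors, against 7.70 to 8.05 in LT NTL. Gpnmb rose by 3.15 ± 0.72 in MYC and Acta2 by 2.57 ± 0.53 in LT, the largest changes of these lists against NTL. Against the shared controls, 0 macrophage markers were called higher by limma and 3 lower in MYC tumors, whereas 4 were higher in LT tumors. Gpnmb averaged 7.80 in MYC tumors, 4.65 in MYC NTL and 6.16 in the shared controls, and was not called in MYC tumors against those controls.

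Markers of other cells were also counted. B cell markers (3 measured) had 1 lower in DEN and 2 higher in LT, with Ms4a1 at 1.35 ± 0.29 in LT. Neutrophil markers (3 measured) were all higher in LT, with Retnlg at 0.74 ± 0.23. Mesothelial markers (5) had 1 lower in DEN and 1 higher in LT, Upk1b at 1.23 ± 0.29. Acinar pancreas markers (4) had 1 higher, Cela1 at 0.91 ± 0.21, and 1 lower in DEN, and their mean level per array was at most 5.20 in any group. Erythroid markers (2) had 1 higher and 1 lower in DEN, Alas2 at -1.40 ± 0.51. The hepatocyte markers (6) had 1 higher and 2 lower in DEN and 2 lower in MYC, the largest change being Cps1 at -0.76 ± 0.19 in MYC.

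The genes whose values followed each of the 8 most closely over the 35 arrays were named by their correlation, a description of arrays that share groups and normalization. Sox9 was closest to Rarg (r = 0.92), Ddr1 (0.90) and Glis3 (0.89), and Prom1 to Tspan9 (0.90), Zfp334 (0.88) and Trim30a (0.88). Epcam was closest to Cd24a (0.91), Pdk3 (0.88) and Spint1 (0.88), and Cd24a to Slc25a24 (0.91), Epcam (0.91) and Fads3 (0.89). Krt19 was closest to Sema3c (0.79), Lrrn1 (0.78) and Slco3a1 (0.75), and Krt7 to Ptpn13 (0.85), Slco3a1 (0.84) and Kif12 (0.80). Krt8 was closest to Krt18 (0.91), Ccdc120 (0.91) and Tpm1 (0.89), and Krt18 to Samd4 (0.92), Uap1l1 (0.91) and Krt8 (0.91). Slco3a1 was thus near both duct keratins, and no gene of the 8 was among the closest of Sox9 or Prom1.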

How the data were processed

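Tumor, NTL and control livers were measured on 1 array per sample. The platform is the Affymetrix Mouse Gene 1.1 ST array, as the probe annotation gives it. The deposited values are log2 values made by the authors with RMA, per the submitters' processing notes; whether all arrays were normalized together is not given in the sources used here. Arrays carry no depth, and precision is limited by how many there are.

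Of 35556 probe sets, 21218 had 1 gene symbol, 1881 several and 12457 none. The brightest single-symbol probe set stood for each of 18820 genes, with no filter on dim genes. All 35 arrays were fitted with a mean per group in limma 3.58.1 (R 4.3.3, lmFit and eBayes), with Benjamini-Hochberg adjustment over all genes and a call at an adjusted p under 0.05. The fit was tested on simulated data. Errors beside changes are standard errors. p-values measure the spread between arrays, some of which share a mouse.

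The genes and lists were chosen with earlier results of these data known. Named are the 8 measured genes, from each list the called gene with the largest rise and fall per tumor to NTL comparison, a few preset genes (some of which are not reported here), from each marker list the largest change, and the 3 genes most correlated with each of the 8; other names stand behind counts of 5 or fewer or were chosen after their values were seen. Locations and promoters are RefSeq's for GRCm38.p6; 6 of 9 genes had a promoter window, and Sox9, Krt19 and Cd24a had none.

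Replicate numbers in the labels are only numbers. Deviations of same-numbered arrays correlated above 0.1 in all pairs in LT tumors against shared controls (r = 0.137 to 0.233, 3 pairs). In no other comparison did all pairs exceed 0.1. Some pairs did elsewhere, with the highest r, 0.291, in LT NTL against shared controls (2 of 4 pairs above 0.1).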

Additional observations from a re-analysis of the deposited data

Results flagged for a closer look

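Of 48 groups of 4 or 5 arrays tested over the 8 genes, 5 held an array far from the others by Dixon's test, which chance flags in about 1 of 20 groups. Prom1 of DEN tumor replicate 1 was 6.90, against 8.80 to 9.37 in the other DEN tumors. Cd24a of DEN tumor replicate 2 was 6.74, against 8.45 to 8.92. Sox9 of LT NTL replicate 2, the low-Xist array of its group, was 7.98, against 6.76 to 7.01. Prom1 of shared control replicate 3 was 6.35, against 4.59 to 4.78, and Epcam of DEN control replicate 3 was 4.89, against 4.25 to 4.37; both are the high-Xist arrays of their groups.

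Tumor changes differed between models by limma's interaction test for Sox9 (DEN minus LT 1.43, adjusted p = 0.00735, and DEN minus MYC 2.17, adjusted p = 9.92e-05), Prom1 (DEN minus MYC 3.17, adjusted p = 0.00146) and Cd24a (DEN minus MYC 1.90, adjusted p = 0.00424, and LT minus MYC 1.52, adjusted p = 0.0378).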

How the results depend on the processing

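Over 1712 values of the 8 genes under the alternatives, 1625 kept their side of the threshold, 45 lost a call, 42 gained one and 0 called values changed sign. Fitting only the groups compared gave 0 genes called by limma in LT tumors against NTL, 0 in LT tumors against controls and 0 for LT against MYC changes, whereas it gave 4 in MYC tumors against NTL, 6 in MYC tumors against controls, 1 in DEN NTL and 2 in MYC NTL; with fewer arrays the spread is estimated from those groups alone. Averaging arrays of the same mouse stem gave 4 in MYC tumors against NTL and 5 in MYC tumors against controls, while Epcam lost its DEN calls against NTL and controls, Krt8 its LT call against NTL and Krt18 its LT call against controls. With Xist as a covariate 1 gene was called in MYC NTL and 2 for DEN against LT. Leaving out 1 array gave 5 to 6 genes in DEN tumors against NTL, 2 to 5 in LT, 2 to 3 in MYC, 5 to 6, 1 to 4 and 1 to 3 in DEN, LT and MYC tumors against controls, 0 to 0 in each NTL group, and 1 to 3, 3 to 5 and 0 to 3 for DEN against LT, DEN against MYC and LT against MYC. The cause of these shifts was not tested beyond the arrays named in the text.

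With the replicate number as a block, 2 genes were called for LT against MYC changes in place of 1, Krt19 joining Cd24a (0.76, limma adjusted p = 0.0464); the block also gave calls for Krt19 in MYC tumors against NTL (-0.53, limma adjusted p = 0.0266) and against controls (-0.48, limma adjusted p = 0.0274) and for Epcam between DEN and MYC (1.07, limma adjusted p = 0.0468). The labels tie the numbers to no mouse, and in LT tumors against controls the block changed no call of the 8 genes.

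Over all genes the count called in LT tumors against NTL was 3838, 615 with those groups alone, 2311 with mouse stems averaged and 1566 without LT tumor replicate 1. In LT tumors against controls 3107 genes were called, and 0, 1616, 1273 with Xist and 1032 without LT tumor replicate 1. In DEN NTL 37 were called, and 183 with those groups alone and 74 with stems averaged. In LT NTL 454 were called, 174 with Xist and as few as 160 with 1 array left out. In MYC NTL 721 were called, 1537 with those groups alone and as few as 299 with 1 array left out. In MYC tumors against NTL 4106 were called, and 2728 without MYC NTL replicate 1. For LT against MYC changes 2326 were called, and 1231 with those groups alone. Centring arrays on their medians moved the share of the called genes that were higher. This share went to 40.8% from 52.3% in LT tumors against NTL and to 53.8% from 43.4% in MYC NTL.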
